A study of Mus musculus with 6 samples.

Results

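The genes that encode the proteins of the cytosolic ribosome were examined in hippocampal RNA of Tmem119-Cre:RiboTag mice. They were taken by their symbols: protein-coding genes named Rps or Rpl with a number, the stalk genes Rplp0, Rplp1 and Rplp2, and paralogs such as Rpl22l1 and Rps27l. This rule found 82 genes among the 39017 of the count table, and it used no measured value. The S6 kinases do not match it. Of the 82 genes, 76 had enough counts to be tested, and the 6 others are described apart.

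The tested libraries hold RNA recovered with anti-HA magnetic beads (IP, 3 libraries). They are set against RNA of the same tissue taken without antibody (input, 3 libraries). The mice of all 6 libraries were female, of the C57BL/6 strain and of the Tmem119-Cre:RiboTag genotype, and the labels name no treatment and no age. RiboTag adds an HA epitope to the ribosomal protein Rpl22 once Cre has acted, and the Tmem119 promoter drives Cre in microglia, the resident macrophages of brain. The labels call the cell type of both groups microglia, but an input taken without antibody also holds RNA of the other cells. Each IP library shares a title code with 1 input library, and the 3 pairs are numbered 1 to 3. Whether a code stands for 1 animal is not said in the labels, and p-values measure only the spread between these specimens, which may be technical. No library of beads on untagged tissue was analysed here.

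Ribosomal proteins bind to ribosomal RNA to build the small subunit, which decodes the mRNA, and the large subunit, which joins the amino acids. The stalk proteins on the large subunit recruit translation factors. Most ribosomal protein mRNAs start with a run of pyrimidines, the 5′ terminal oligopyrimidine or TOP motif, through which mTORC1 and the RNA-binding protein Larp1 control their translation. In mammals these genes have also left many processed pseudogenes, copies made from mRNA and inserted elsewhere in the genome, some nearly identical to the parent mRNA.

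The bases around the annotated start were searched for such a run, because this motif is what the family is known for. A start was counted as holding a tract when a run of at least 8 C or T on the sense strand overlapped the stretch from 5 bases before to 5 bases after its first base, and a gene when any of its starts did. RefSeq start windows on GRCm38.p6 were found for 62 of the 82 genes, and 24 of the 62 held a tract (38.7%). The share was 11.6% of 16209 protein-coding genes with a window. The windows below run from 10 bases before the start to 20 bases from it on, with the tract in capitals. The first is of a gene higher in IP, the next 4 are of genes lower in IP, and the last 2, Rpl7l1 and the tag carrier Rpl22, hold no such tract at this start. They lie at chr7:3704031-3704060 on the plus strand for Rps9, chr14:18270967-18270996 on the minus strand for Rpl15, chr7:4792955-4792984 on the plus strand for Rpl28 and chr7:109519185-109519214 on the plus strand for Rpl27a. Those of Rps6 and Rpl7l1 lie on the minus strand at chr4:86857348-86857377 and chr17:46782637-46782666, and that of Rpl22 on the plus strand at chr4:152325716-152325745.
Rps9: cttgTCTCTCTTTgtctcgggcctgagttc
Rpl15: agaaagCCTTCTTCCTTTCCTCTggcggca
Rpl28: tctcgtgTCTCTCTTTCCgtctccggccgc
Rpl27a: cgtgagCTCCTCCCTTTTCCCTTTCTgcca
Rps6: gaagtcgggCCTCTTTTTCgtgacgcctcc
Rpl7l1: gctgcgcaagcgcagtagctgaagcaccgg
Rpl22: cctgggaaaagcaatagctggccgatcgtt
A tract in this window is a match of letters and no measured site of regulation, and no match says only that the letters are not there.

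The pseudogenes bear on what a count of a ribosomal protein gene measures, so the closeness of the copies is shown as well. Each pair below gives 40 coding bases of a gene and the same stretch of its pseudogene, from the annotated transcripts on GRCm38 (GENCODE M21), with the base that differs in capitals. Rpl3 and Rpl3-ps1 differ at 2 of 1209 aligned coding bases, and Rpl24 and Gm9385 at 1 of 471. The stretches of Rpl3 and Rpl3-ps1 lie at chr15:80082510-80082549 on the minus strand and chrX:13202608-13202647 on the plus strand. Those of Rpl24 and Gm9385 lie at chr16:55969607-55969646 on the plus strand and chr9:116040735-116040774 on the minus strand.
Rpl3: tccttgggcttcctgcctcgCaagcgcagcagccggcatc
Rpl3-ps1: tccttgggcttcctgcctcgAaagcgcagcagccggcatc
Rpl24: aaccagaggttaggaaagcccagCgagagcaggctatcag
Gm9385: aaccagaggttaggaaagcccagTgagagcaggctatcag
Over their annotated coding bases, Rpl38 and Rpl38-ps2 (210 bases), Rpl10a and Rpl10a-ps1 (651 bases) and Rps16 and Rps16-ps2 (438 bases) were identical.

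IP libraries 1, 2 and 3 held 18558497, 12958727 and 10757351 counts, and the input libraries 18448897 to 20422140. The markers fitted the label of the IP: each of 16 microglial markers rose, and their summed level was 53077 to 62867 CPM in IP and 789 to 896 CPM in input (CPM, counts per library size after TMM scaling). Tmem119 averaged 2238 ± 162 CPM in IP and 26.2 ± 2.40 CPM in input (SD, n = 3 each). Of the markers of other cells, 12 of 13 neuronal, 9 of 10 astrocytic and 11 of 12 oligodendrocyte lineage genes were lower in IP, and 6 of 10 endothelial genes were higher. Their summed levels in IP were not at 0: neuronal markers summed to 3732 to 5854 CPM in IP and 15152 to 19231 CPM in input. The 6 choroid plexus markers, none of them called, summed to 626, 498 and 11.2 CPM in IP libraries 1, 2 and 3, and to 3811, 2683 and 28.2 CPM in input libraries 1, 2 and 3.

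Most ribosomal protein genes were not called different between IP and input, while 7722 of all genes tested were. Of the 76 tested, 3 rose in IP (Rpl7l1, Rps9 and Rps3), 14 fell and 59 were not called (edgeR quasi-likelihood test, Benjamini-Hochberg adjusted p under 0.05). That is 22.4% called, against a background of 47.7% of the 16196 genes tested, of which 23.8% were higher and 23.9% lower. The fitted log2 fold of IP over input had a median of -0.35 over the 76 genes, with quartiles of -0.90 and 0.04, and a median of -0.10 over all genes tested. Within 2-fold in either direction were 60 of the 76 genes and 7416 of all 16196. Of the 76 genes, 32 were lower in IP in 3 of 3 pairs, 9 were higher in 3 of 3 and 35 were mixed. The share called was 35.5% of the 31 genes with an average log2 CPM of at least 5 and 13.3% of the 45 under it. A gene that was not called is therefore not shown to be equal in IP and input. By pair, the median log2 difference of the 76 genes was -0.20, -0.50 and -0.55 in pairs 1, 2 and 3, and that of all genes tested was -0.07, -0.08 and -0.23. In these bulk samples fewer cells of a type and less RNA per cell cannot be told apart. When the fit was corrected for transcript length, 10 genes were higher and 9 lower, with a median of 0.030 and a background of 22.9% higher and 24.3% lower. Leaving out input library 2 gave 9 lower genes (background 18.5%), and leaving out pair 1 or pair 2 gave 6 (background 15.2% and 17.9%).

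**Figure D1:**
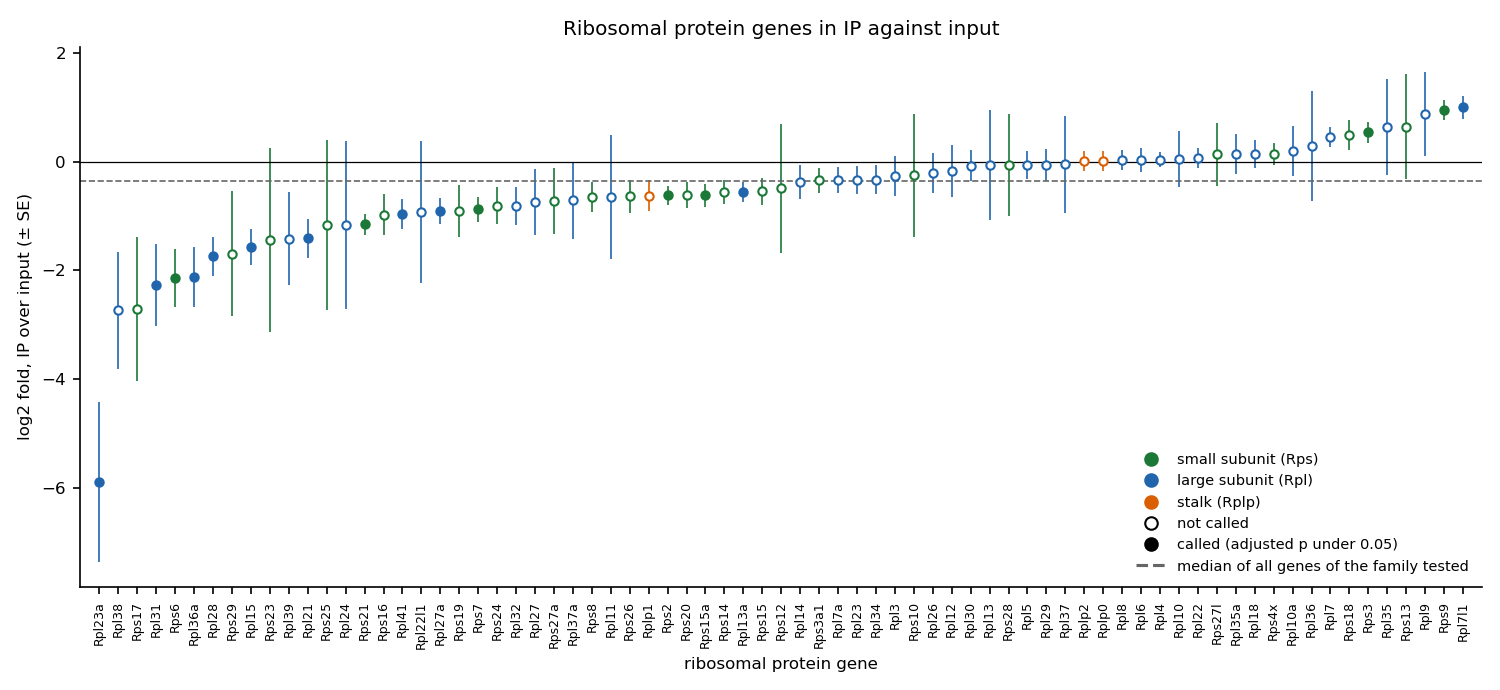
Fitted log2 fold of IP over input for 73 of the 76 tested ribosomal protein genes, ordered by fold, with bars of 1 SE; filled points are called at an edgeR adjusted p under 0.05 and colours mark the subunit. Most points lie between -1 and 1, the 3 filled points above 0 are Rpl7l1, Rps9 and Rps3, and the dashed line is the median of -0.35 over all 76.

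Together the 82 genes took 0.436%, 0.454% and 0.356% of all counts in IP libraries 1, 2 and 3, and 0.453%, 0.579% and 0.432% in input libraries 1, 2 and 3. The groups overlapped, at 0.415% ± 0.0519 in IP and 0.488% ± 0.0798 in input (SD, n = 3 each; two-sided exact permutation p = 0.5, where the smallest possible with 3 against 3 is 0.1). Genes of the mitochondrial genome made up 0.360% to 1.31% of IP libraries and 6.63% to 10.3% of input libraries. Without them, the share of the ribosomal protein genes was 0.419% ± 0.0543 in IP and 0.535% ± 0.0959 in input, and the groups no longer overlapped (exact permutation p = 0.1).

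Rpl22, whose protein carries the tag and binds ribosomal RNA in the large subunit, was measured first. It lies on chromosome 4 at 152325742 to 152334071 (plus strand, GRCm38). It had 84.6, 59.3 and 64.8 CPM in IP libraries 1, 2 and 3, and 67.5, 68.2 and 62.6 CPM in input libraries 1, 2 and 3. The groups overlapped, with IP library 1 above, IP library 2 below and IP library 3 among the inputs. The log2 fold was 0.07 (SE 0.19, edgeR adjusted p = 0.78). It turned to -0.02 with library totals as the only scaling, -0.05 with upper quartile factors, -0.09 without IP library 1 and -0.08 without pair 1. Its pseudogene rows were few in counts: 94.2% of the counts of Rpl22 and its copies in IP, and 91.6% in input, were in its own row.

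Its paralog Rpl22l1, which can take the place of Rpl22 in the ribosome, was far lower in count. It had 0, 44 and 43 counts in IP libraries 1, 2 and 3, and 134, 113 and 48 in input libraries 1, 2 and 3. IP library 1 was at 0. In CPM, IP libraries 2 and 3 (3.76 and 4.02) lay above input library 3 (2.47) and below input libraries 1 and 2 (6.25 and 5.89). The log2 fold was -0.92 (SE 1.31, edgeR adjusted p = 0.61), and with its pseudogene rows added it was -1.71 (edgeR adjusted p = 0.018).

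Among the other paralogs, Rpl7l1, a relative of the large subunit protein gene Rpl7, was called. It lies on chromosome 17 at 46773907 to 46782672 (minus strand, GRCm38). It had 88.9, 87.8 and 59.3 CPM in IP libraries 1, 2 and 3, and 43.8, 39.98 and 33.9 CPM in input libraries 1, 2 and 3. Every IP library was above every input library, and the log2 fold was 1.0 (SE 0.22, edgeR adjusted p = 0.0039). Without pair 2 it was 0.92 and no longer called (adjusted p = 0.057). Rpl7 itself had 76.0, 80.9 and 64.3 CPM in IP and 45.1, 58.7 and 56.7 CPM in input, without overlap, and was not called (log2 fold 0.46, SE 0.19, edgeR adjusted p = 0.068). It was called higher without IP library 3 (0.55, edgeR adjusted p = 0.041), with limma-voom (adjusted p = 0.041) and with a stricter filter on low counts (edgeR adjusted p = 0.043).

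Rps27l, the paralog of Rps27, averaged 7.06 ± 3.26 CPM in IP and 6.43 ± 2.42 CPM in input (SD, n = 3 each) and was not called (log2 fold 0.14, SE 0.58, edgeR adjusted p = 0.87). Its sign turned without IP library 1, input library 3, pair 1 or pair 3, with log2 folds of -0.26, -0.15, -0.20 and -0.13. Rps27 itself had 0 counts in every IP library and 0, 9 and 0 in input libraries 1, 2 and 3, which is at least 2.04-fold lower in IP with 3 counts in the whole group as the floor. That bound was 1.12 without IP library 1, and without input library 2 the gene had no count. Rpl39l, known from mouse testis, had 34, 4 and 31 counts in IP libraries 1, 2 and 3 and 0 in every input library. It was at least 33.8-fold higher in IP, at the same floor, and at least 21.7-fold without input library 1. Rpl3l, known from mouse heart and skeletal muscle, had 0 counts in IP and 11, 0 and 10 in input libraries 1, 2 and 3, at least 4.77-fold lower in IP, and at least 2.61-fold without IP library 1. Rpl10l, also known from mouse testis, had no count in any library.

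Beside Rps27, Rpl39l, Rpl3l and Rpl10l, the genes too low to be tested were Rpl17 and Rpl19. Rpl17 had 0 counts in IP and 3, 10 and 0 in input libraries 1, 2 and 3, at least 2.95-fold lower in IP. That bound was 1.62 without IP library 1, and without input library 2 both groups were at or under the floor. Rpl19 had 0, 2 and 0 counts in IP libraries 1, 2 and 3, and 7, 31 and 64 in input libraries 1, 2 and 3. The ratio of input to IP was 34.7 with a 95% counting interval of 9.37 to 291. It was 19.1 without input library 3 and 19.0 without IP library 1, and without IP library 2 the gene was at least 16.5-fold lower in IP. These are proteins of every ribosome, and both genes share sequence with pseudogenes. For Rpl19 the pseudogene row Rpl19-ps11 held 1301 counts in IP and 2253 in input. With pseudogene rows added, neither gene was called. The log2 fold was then -0.35 for Rpl19 (edgeR adjusted p = 0.50) and -0.31 for Rpl17 (edgeR adjusted p = 0.87). The intervals and floors given here pool the libraries of a group, so they cover counting error alone and leave out the spread between libraries. The reads carry no molecular identifiers, so even the counting error may be understated.

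In the small subunit, 30 genes were tested, of which 2 rose and 5 fell, with a median log2 fold of -0.62. The share called was 23.3%, against 47.7% of all genes tested (23.8% higher and 23.9% lower). Rps9, a protein near the entry of the mRNA channel, had 434, 532 and 401 CPM in IP libraries 1, 2 and 3, and 207, 286 and 212 CPM in input libraries 1, 2 and 3. All IP libraries were above all input libraries. Its log2 fold was 0.96 (SE 0.18, edgeR adjusted p = 0.0019), and the call held in each of 9 fits that left out a library or a pair, at 0.81 to 1.10. Rps9 lies on chromosome 7 at 3703993 to 3706897 (plus strand, GRCm38), and no pseudogene row was assigned to it.

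Rps3, also at the mRNA entry and known for a further role in DNA repair, was the other. It had 368, 533 and 340 CPM in IP libraries 1, 2 and 3, and 284, 324 and 244 CPM in input libraries 1, 2 and 3. The groups did not overlap, and the lowest IP library was little above the highest input library. The log2 fold was 0.54 (SE 0.20, edgeR adjusted p = 0.047). This call held without IP library 3 and was lost without any other library or any pair. The log2 fold was then 0.62 without IP library 1, 0.30 without IP library 2, 0.54, 0.62 and 0.42 without input libraries 1, 2 and 3, and 0.62, 0.41 and 0.54 without pairs 1, 2 and 3. It was also lost with upper quartile factors (edgeR adjusted p = 0.099) and with library totals alone (edgeR adjusted p = 0.076).

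Of the 5 small subunit genes that fell, Rps21 had the highest level per kilobase of transcript, at 161 CPM per kb in IP and 357 CPM per kb in input. It had 67.4, 73.2 and 49.7 CPM in IP libraries 1, 2 and 3, and 129, 163 and 129.7 CPM in input libraries 1, 2 and 3. All IP libraries were below all input libraries, with a log2 fold of -1.15 (SE 0.20, edgeR adjusted p = 0.0010). The call held in each of the 9 fits that left out a library or a pair. Rps6, the substrate of the S6 kinases, fell further at a low level, with 1.78, 2.65 and 2.52 CPM in IP and 11.8, 9.95 and 9.04 CPM in input. Its log2 fold was -2.15 (SE 0.53, edgeR adjusted p = 0.0085), and the call was lost without input library 1 (-2.04) or pair 1 (-1.87). Only 16.4% of the 100-base windows of Rps6 occur in no other gene. With its pseudogene rows added, the log2 fold was -1.68.

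Rps7, Rps2 and Rps15a, structural proteins of the small subunit, fell by less. Rps7 averaged 36.9 ± 5.42 CPM in IP and 67.7 ± 15.2 CPM in input (SD, n = 3 each; log2 fold -0.88, edgeR adjusted p = 0.0100), and the call was lost without pair 2 (-0.63). Rps2 averaged 83.1 ± 10.01 CPM in IP and 128 ± 22.5 CPM in input (log2 fold -0.62, edgeR adjusted p = 0.020), lost without input library 2 (-0.49) or pairs 1, 2 or 3 (-0.78, -0.51 and -0.60). Rps15a averaged 30.99 ± 4.27 CPM in IP and 47.5 ± 5.05 CPM in input (log2 fold -0.62, edgeR adjusted p = 0.034). Its call held only without IP library 3 or pair 3 among the 9. It was lost without IP libraries 1 and 2 (-0.55 and -0.58), input libraries 1, 2 and 3 (-0.53, -0.66 and -0.70) and pairs 1 and 2 (-0.46 and -0.61).

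In the large subunit, 43 genes were tested, of which 1 rose (Rpl7l1) and 9 fell, with a median log2 fold of -0.26. The share called was again 23.3%, against 47.7% of all genes tested (23.8% higher and 23.9% lower). Rpl15, a core protein of the subunit, had 20.05, 23.3 and 8.79 CPM in IP libraries 1, 2 and 3, and 52.8, 50.8 and 51.0 CPM in input libraries 1, 2 and 3. The input libraries were within a few CPM of each other and above every IP library. The log2 fold was -1.56 (SE 0.33, edgeR adjusted p = 0.0038), and the call held in each of the 9 fits that left out a library or a pair. Rpl28 had 21.8, 16.9 and 7.20 CPM in IP and 48.9, 54.4 and 51.0 CPM in input. For this gene too IP library 3 was the lowest of all, and the log2 fold was -1.74 (SE 0.36, edgeR adjusted p = 0.0032), lost without pair 2 (-1.79, edgeR adjusted p = 0.055).

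Rpl31, a protein beside the exit of the nascent chain tunnel, had 8.75, 5.64 and 0.374 CPM in IP libraries 1, 2 and 3, and 24.3, 26.5 and 21.3 CPM in input libraries 1, 2 and 3. IP library 3 was close to 0 and no IP library reached the inputs. The log2 fold was -2.27 (SE 0.76, edgeR adjusted p = 0.033), and -2.99 without IP library 1. The call was lost without IP library 2 (-2.38), without input libraries 1, 2 and 3 (-2.27, -2.23 and -2.38) and without pairs 1 and 2 (-2.98 and -2.31). Rpl36a, on chromosome X, had 6.48, 1.79 and 4.11 CPM in IP and 9.75, 20.8 and 23.6 CPM in input. Its log2 fold was -2.12 (SE 0.56, edgeR adjusted p = 0.011), and the call was lost without input library 3 (-1.90), pair 2 (-1.66) or pair 3 (-1.89). Without pair 1 it was -2.91.

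Rpl21 had 9.94, 4.95 and 9.72 CPM in IP libraries 1, 2 and 3, and 18.4, 24.9 and 22.3 CPM in input libraries 1, 2 and 3, without overlap. Its log2 fold was -1.41 (SE 0.37, edgeR adjusted p = 0.011), lost without pair 2 (-1.06). Rpl23a, which binds the signal recognition particle at the tunnel exit, had 3 counts in IP, and 98, 115 and 99 in input libraries 1, 2 and 3. The ratio of input to IP was 70.8 with a 95% counting interval of 24.0 to 345, and 38.8 without IP library 1. All 3 counts were in IP library 2, without which the gene was at least 50.5-fold lower in IP. The fitted log2 fold, -5.90 (edgeR adjusted p = 0.0088), depends on the prior count. It was lost without pair 1 (edgeR adjusted p = 0.061), and with the pseudogene rows added it was -3.42 (edgeR adjusted p = 0.011). The last 3 that fell were Rpl41, the shortest protein of the ribosome, at -0.96, Rpl27a at -0.91 and Rpl13a at -0.55 (edgeR adjusted p = 0.018, 0.011 and 0.032). That of Rpl41 was lost without input library 2 (-0.91) or pairs 1 and 2 (-1.11 and -1.10), and that of Rpl27a without pairs 1 and 2 (-0.95 and -0.89). That of Rpl13a was lost without IP libraries 1 and 3 (-0.53 and -0.45), input libraries 1 and 2 (-0.59 and -0.44) and pairs 1 and 3 (-0.56 and -0.58). With its pseudogene rows added, Rpl13a was at -0.47 and not called (edgeR adjusted p = 0.074).

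Both acidic stalk proteins and their anchor were tested, and none was called in the fit used for all genes here. Rplp0, the anchor, had 169.6, 157 and 129.6 CPM in IP libraries 1, 2 and 3, and 141, 180 and 128 CPM in input libraries 1, 2 and 3. The groups overlapped fully, with a log2 fold of 0.02 (SE 0.18, edgeR adjusted p = 0.93). Rplp2 averaged 66.9 ± 4.88 CPM in IP and 66.1 ± 11.1 CPM in input (SD, n = 3 each; log2 fold 0.02, SE 0.18, edgeR adjusted p = 0.95). Rplp1 had 83.1, 139.9 and 61.9 CPM in IP and 142, 173 and 124 CPM in input. IP library 2 lay within the inputs and the other IP libraries below them, with a log2 fold of -0.62 (SE 0.28, edgeR adjusted p = 0.099). Within each of the 3 pairs it was lower in IP, and it was called lower with limma-voom (adjusted p = 0.024), upper quartile factors (edgeR adjusted p = 0.042) and library totals (edgeR adjusted p = 0.039), and without IP library 2 (-1.03) or pair 2 (-0.89). With the length correction its log2 fold was -0.09 (edgeR adjusted p = 0.78). The signs of Rplp0 and Rplp2 turned with other scaling factors, to between -0.08 and -0.11.

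**Figure D2:**
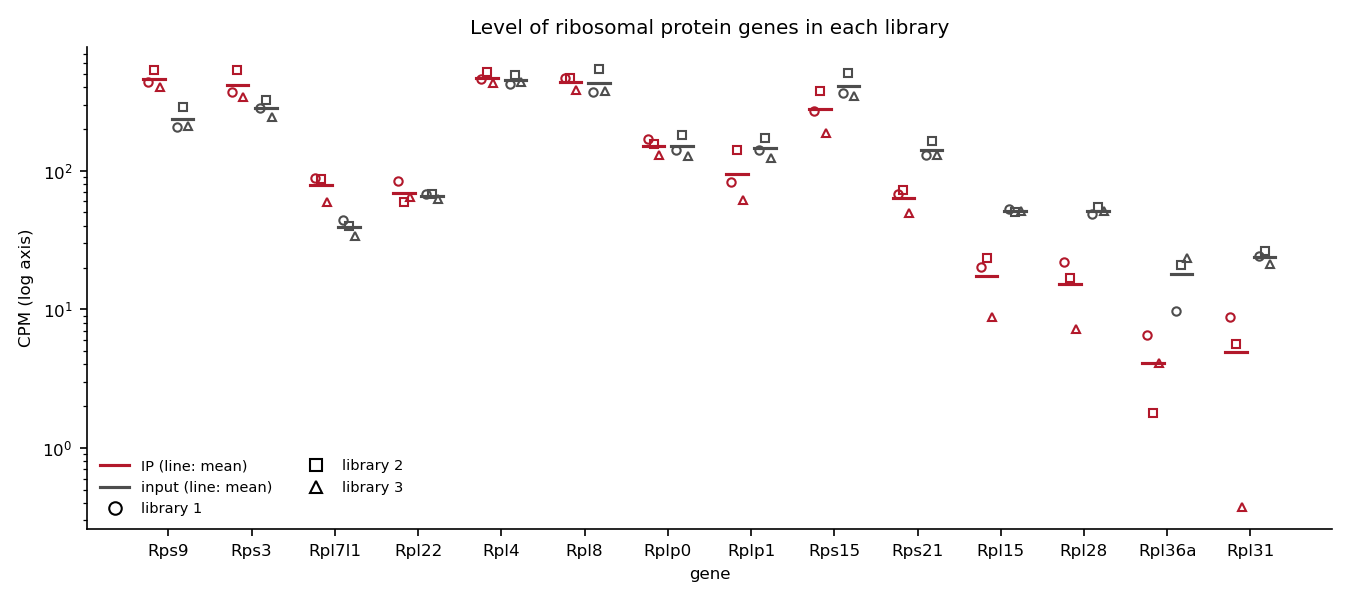
Level in CPM, on a log axis, of 14 ribosomal protein genes in each library, with IP in red left of input in grey, a line for each group's mean and a marker shape for each pair. Rps9 and Rpl7l1 show IP above input, Rpl22, Rpl4, Rpl8 and Rplp0 overlap, and Rpl15, Rpl28, Rpl36a and Rpl31 lie lower in IP.

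Levels between genes were compared per kilobase of the longest annotated coding transcript. The 3 highest levels in IP were of Rps15 (485 CPM per kb), Rpl8 (431 CPM per kb) and Rps9 (338 CPM per kb), and the 3 highest in input of Rps15 (708 CPM per kb), Rpl8 (420 CPM per kb) and Rps21 (357 CPM per kb). The median over the 82 genes was 10.8 CPM per kb in IP. The order depended on the transcript taken. Per kilobase of the median coding transcript, the 3 highest in IP were Rps9 (553 CPM per kb), Rps15 (518 CPM per kb) and Rpl8 (469.98 CPM per kb), and the 3 highest in input were Rps15 (756 CPM per kb), Rpl13a (529 CPM per kb) and Rpl8 (458 CPM per kb). So the rows of a few genes stood far above the rest, although every ribosome holds these proteins in nearly equal number. These levels leave out reads counted in pseudogene rows. Of the 7 genes with the most counts, 5 had no pseudogene row, as against 7 of all 82. The part of pseudogenes in this order was not tested. In CPM, Rps15, of the head of the small subunit, had 269, 376 and 188 in IP libraries 1, 2 and 3, and 363, 504 and 348 in input libraries 1, 2 and 3, and was not called (log2 fold -0.54, SE 0.25, edgeR adjusted p = 0.11). It was lower in IP in each of the 3 pairs, and was called lower with limma-voom (adjusted p = 0.035), DESeq2 (adjusted p = 0.044), upper quartile factors (edgeR adjusted p = 0.041) and library totals (edgeR adjusted p = 0.0404), and without IP library 2 (-0.84, edgeR adjusted p = 0.022). With the length correction it was -0.03 (edgeR adjusted p = 0.92). Rpl8, close to the peptidyl transferase centre, had 469, 467 and 383 CPM in IP and 371, 542 and 373 CPM in input, which overlapped (log2 fold 0.04, SE 0.18, edgeR adjusted p = 0.89).

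The 7 most counted genes, among them Rpl4, Rpl8, Rps15, Rps3, Rps9 and Rpl13a, held 56.2% of the counts of all 82 in IP and 48.4% in input. No pseudogene row was assigned to 7 of the 82 genes, which include Rpl4, Rpl8, Rps3, Rps9, Rpl39l and Rpl3l. The other 75 genes had 681 pseudogene rows that share at least 30 words of 31 bases with them, and 464 of these rows had a count. For 19 of the 82 genes the pseudogene rows held more counts than the gene's own row. Over the family, pseudogene rows held 23.1% of the counts in IP and 25.7% in input. Rpl14-ps1 had 1979, 1521 and 657 counts in IP libraries 1, 2 and 3, and 3044, 3569 and 2394 in input libraries 1, 2 and 3. Rpl14, its parent, a large subunit protein gene, had 518, 381 and 155 counts in IP and 696, 651 and 598 in input, so the pseudogene row was above the gene row in all 6 libraries. How reads that match more than 1 place were counted is not given in the sources used here, so the values of the genes with near-identical copies are uncertain.

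**Figure D3:**
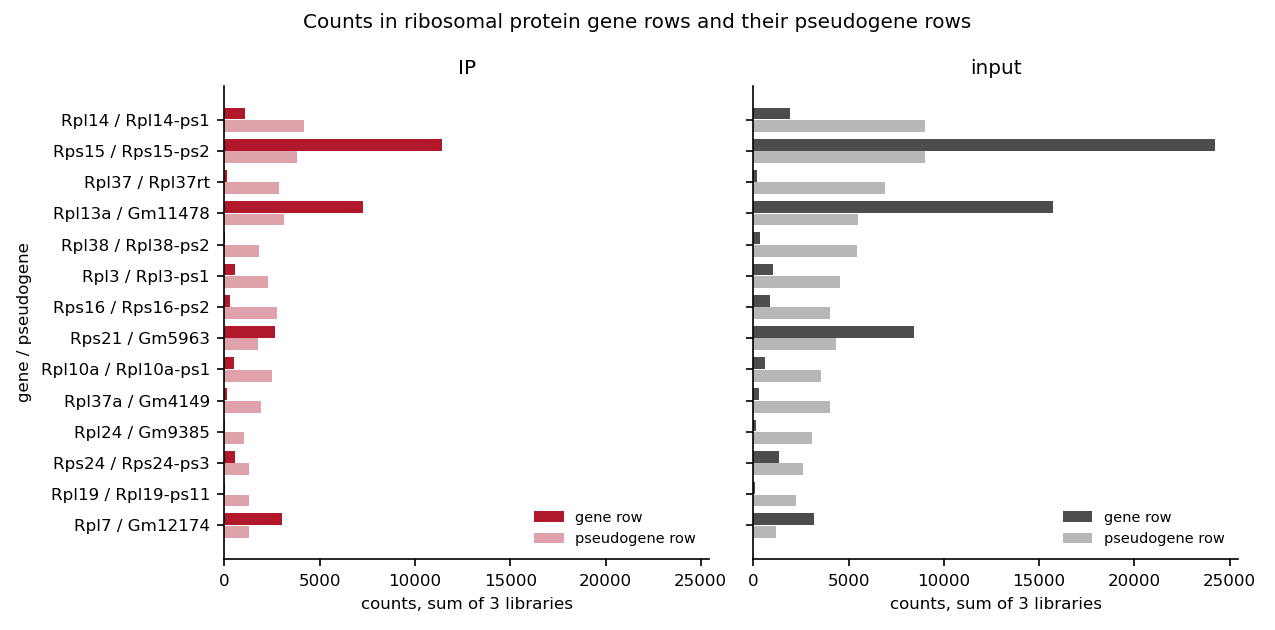
Counts summed over 3 libraries in the rows of ribosomal protein genes (dark bars) and in the row of a pseudogene of each (pale bars), for 14 of the pseudogene rows with the most counts, in IP (left panel) and input (right panel). Rpl14-ps1 has 4157 counts in IP and 9007 in input, against 1054 in IP and 1945 in input in the row of Rpl14.

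Folds and levels were set beside the closeness of the copies. The share of a gene's 100-base windows that occur in no other gene had a median of 67.6% and ran from 8.89% to 100%. Of 25 tested genes with a share of at least 80%, 3 rose and 4 fell, and their median log2 fold was 0.02. Of 25 with a share between 50% and 80%, 0 were higher and 3 lower, with a median of -0.34. Of 26 under 50%, 0 were higher and 7 lower, with a median of -0.59. Among all genes tested, 23.8% were higher and 23.9% lower. The 7 lower genes made up 26.9% of their class, and the class between 50% and 80% had the lowest share called. Called counts were not compared between the classes by a test. Between 50% and 80%, the count of 0 higher in edgeR was 1 at an unadjusted p under 0.05, 0 with DESeq2 and 1 with limma-voom. Under 50%, the count of 0 was also 0 at an unadjusted p under 0.05 in edgeR, 0 with DESeq2 and 0 with limma-voom. Across the 76 genes, which share libraries, Spearman's rho was 0.22 between this share and the log2 fold, and 0.49 between this share and the average log2 CPM. When each gene was summed with its pseudogene rows, 4 genes were higher and 17 lower, with a median of -0.35 and a background of 23.9% higher and 24.0% lower. Rpl38, which was not called alone (log2 fold -2.74, SE 1.08, edgeR adjusted p = 0.062), had a log2 fold of -1.06 with its copies (edgeR adjusted p = 0.0015). Alone it was called with DESeq2 (adjusted p = 0.012) and without IP library 1 (-3.62) or IP library 3 (-2.23). Rps18, at 20.7, 19.98 and 18.3 CPM in IP and 11.99, 15.9 and 13.97 CPM in input, did not overlap but was not called (log2 fold 0.49, edgeR adjusted p = 0.18).

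Ribosomal protein mRNAs are short, and the fold of all genes varied with transcript length. The longest coding transcript had a median of 925.5 bases over the 76 genes and of 3214 bases over the other protein-coding genes tested. In the other genes the median log2 fold was -1.28 for 46 genes of 250 to 500 bases, -0.85 for 587 of 500 to 1000 bases, -0.40 for 2602 of 1000 to 2000 bases and 0.69 for 784 of 8000 to 16000 bases. The 44 ribosomal protein genes under 1000 bases had a median of -0.55, against -0.87 for 639 other protein-coding genes under 1000 bases. The 32 others had a median of -0.30. Across the 76 genes Spearman's rho between log2 fold and length was 0.27, and 0.21, 0.27 and 0.24 for the differences of pairs 1, 2 and 3. Across 13844 protein-coding genes it was 0.19. The genes share libraries and the longest annotated transcript need not be the expressed one, as for Rps20 and Rps15a, with annotated transcripts of 3706 and 5179 bases.

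With the length correction, Rpl4, Rpl7, Rpl8, Rps18 and Rps4x were among the genes that joined Rpl7l1, Rps9 and Rps3 as higher in IP. Rps9 was then at a log2 fold of 1.29 (edgeR adjusted p = 4.8e-05) and Rpl8 at 0.45 (edgeR adjusted p = 0.020). Rps20 joined the lower genes. Rpl13a (-0.16), Rpl27a (-0.54), Rpl31 (-1.91), Rpl41 (-0.46), Rps2 (-0.23) and Rps7 (-0.43) were no longer called. Rpl15, Rpl21, Rpl23a, Rpl28, Rpl36a, Rps6, Rps15a and Rps21 were lower in both fits. The corrected log2 folds of Rps20 (-0.71, from -0.62) and Rps15a (-0.93, from -0.62) rest on annotated transcripts of 3706 and 5179 bases. These need not be the expressed ones. The part of transcript length in each fold was not tested beyond this correction.

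**Figure D4:**
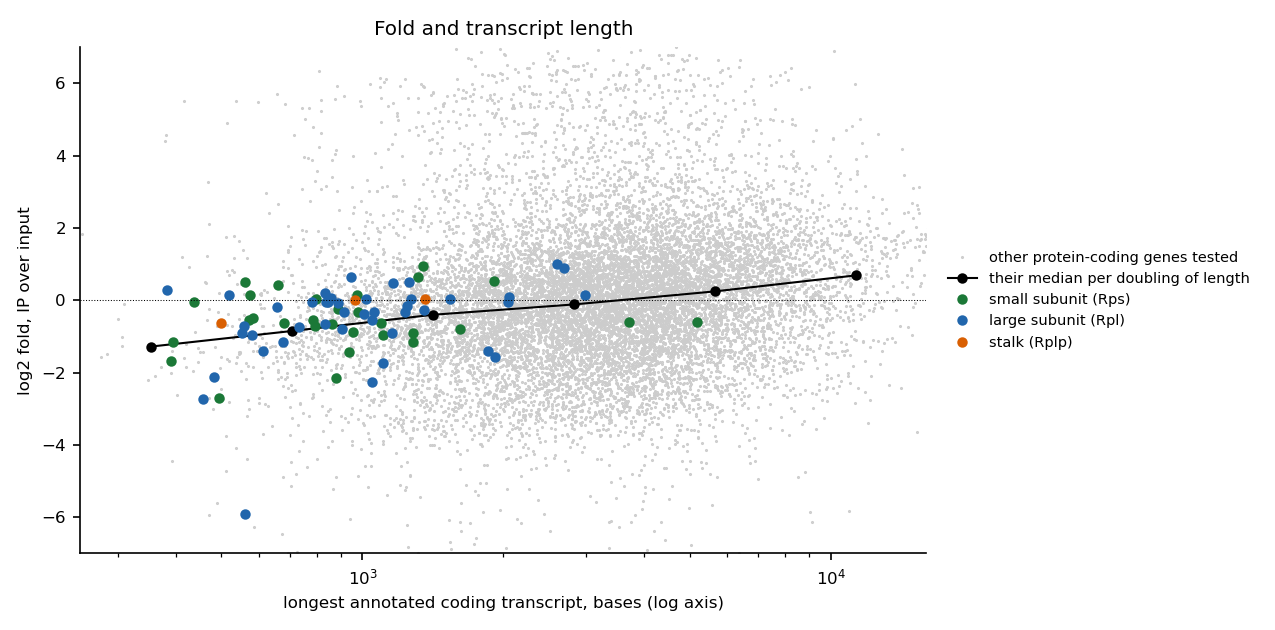
Log2 fold of IP over input against the longest annotated coding transcript (log axis, bases), with other protein-coding genes in grey, their median for each doubling of length in black, and ribosomal protein genes in colour by subunit; 251 other genes lie outside the axes. The black line climbs from -1.28 in the shortest bin to 0.69 in the longest, and the ribosomal protein genes lie mostly at the short end, with a median of 925.5 bases.

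Genes with and without a pyrimidine tract at the start had close medians. The 22 tested genes with a tract had a median log2 fold of -0.35, and the 35 with a window and no tract a median of -0.34. Both the gene Rps9, which rose, and Rpl15, Rpl28, Rpl27a and Rps6, which fell, hold a tract in the windows printed above. Rpl13a and Rps15a, which fell, hold one as well. Windows without a tract were those of Rpl31, Rpl36a, Rpl41, Rps2, Rps7 and Rps21, which fell, and of Rps3 and Rpl7l1, which rose. Each start is an annotated position, some genes have several, and the start used in these cells was not measured here.

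The symbol rule misses some ribosomal proteins. Of these, Rack1, a scaffold on the small subunit, had 365, 367 and 324 CPM in IP libraries 1, 2 and 3, and 253, 279 and 194 CPM in input libraries 1, 2 and 3. The groups did not overlap, with a log2 fold of 0.54 (SE 0.17, edgeR adjusted p = 0.022), lost without IP library 1 or 2 (0.51 and 0.49), input library 1 or 3 (0.57 and 0.38) and pair 1 or 3 (0.55 and 0.43). Fau and Rpl36al were not called, and Rpsa, with 0 counts in IP, was too low to be tested.

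Other mRNAs with the TOP motif encode elongation factors, initiation factor subunits and poly(A) binding protein. Of 19 tested, 3 rose and 2 fell, with a median log2 fold of -0.07. This was 26.3% called, against 47.7% of all genes tested (23.8% higher and 23.9% lower). Eef2, the elongation factor that moves the ribosome along the mRNA, averaged 1948 ± 230 CPM in IP and 1303 ± 81.1 CPM in input (SD, n = 3 each; log2 fold 0.58, edgeR adjusted p = 0.0092), lost without input library 3 (0.52) or pairs 1 and 3 (0.67 and 0.49). Eef1a1, which brings aminoacyl-tRNA, averaged 894 ± 128 CPM in IP and 801 ± 76.0 CPM in input and was not called (log2 fold 0.16, edgeR adjusted p = 0.44). With the length correction it was called, at 0.39 (edgeR adjusted p = 0.027). Pabpc1, the cytoplasmic poly(A) binding protein, rose with a log2 fold of 1.09, and Eif4b, a helper of the cap-bound helicase, with 0.77 (edgeR adjusted p = 0.00055 and 0.0011). The eIF3 subunits Eif3h and Eif3k fell, with log2 folds of -0.69 and -1.11 (edgeR adjusted p = 0.016 and 0.0019). That of Eif3h was lost without pairs 1 and 2 (-0.78 and -0.67).

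Among 15 tested regulators of TOP mRNAs, 7 rose and 2 fell, with a median log2 fold of 0.73. The background was 23.8% higher and 23.9% lower among all genes tested. Rptor, the raptor subunit of mTORC1, had 240, 322 and 285 CPM in IP libraries 1, 2 and 3, and 74.0, 55.6 and 68.3 CPM in input libraries 1, 2 and 3. The groups lay far apart, with a log2 fold of 2.10 (SE 0.18, edgeR adjusted p = 1.2e-05). Tsc1 (1.32) and Tsc2 (0.73), which together restrain mTORC1, also rose, as did Larp1 (1.21), the S6 kinase Rps6kb2 (1.70) and the cap-binding repressors Eif4ebp1 (2.41) and Eif4ebp2 (0.95). Rheb, the small GTPase that activates mTORC1, fell with a log2 fold of -1.34, and so did Mlst8, a subunit of mTORC1, with -0.87. The calls of Rps6kb2 (1.34) and Eif4ebp1 (2.11) were lost without pair 2, and that of Mlst8 without pair 1 (-0.89). That of Eif4ebp2 was lost without IP library 1 (0.89) or pairs 1 and 2 (0.98 and 0.72). With the length correction 5 of the 15 were higher and 4 lower, against 22.9% and 24.3% of all genes tested. Some of the higher calls named above were thus not kept in that fit.

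Of 29 tested genes of ribosome assembly, 6 rose and 4 fell, with a median of 0.05. This was 34.5% called, against 47.7% of all genes tested (23.8% higher and 23.9% lower). Higher were Ubtf (0.63) and Polr1a (1.88), of ribosomal RNA transcription, and Pes1 (1.22), Mdn1 (1.82), Heatr1 (2.67) and Utp20 (1.45), of subunit maturation. Lower were Nop10 (-1.23) and Nhp2 (-1.0), of pseudouridylation, with Rrn3 (-0.84) and Wdr12 (-1.17). The calls of Ubtf (0.64) and Rrn3 (-0.78) were lost without pair 1, and that of Utp20 without pair 1 or 2 (1.47 and 1.22). That of Wdr12 was lost without IP library 1 (-1.05), input libraries 1, 2 and 3 (-1.26, -1.03 and -1.25) and pairs 1 and 3 (-1.14 and -1.08). Ncl, nucleolin, averaged 147 ± 30.4 CPM in IP and 142 ± 6.98 CPM in input (SD, n = 3 each; log2 fold 0.05, edgeR adjusted p = 0.84), and its log2 fold turned to -0.56 with the length correction (edgeR adjusted p = 0.031). Of 11 genes of ribosome rescue and recycling, 4 rose and 1 fell, or 45.5% called, near the 47.7% of all genes tested. Higher were Gcn1l1 (2.14), Zfp598 (1.26), Gtpbp1 (0.91) and Gtpbp2 (0.58), which act at stalled or collided ribosomes, and Edf1 (-0.75), which also binds collided ribosomes, was lower. That of Edf1 was lost without pairs 1 and 2 (-0.90 and -0.70). That of Gtpbp2 was lost without IP library 3 (0.46), input libraries 1, 2 and 3 (0.60, 0.55 and 0.53) and pairs 1, 2 and 3 (0.66, 0.63 and 0.41).

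The mitochondrial ribosome is built from a separate set of nuclear genes. Of 77 tested, 44 fell and 0 rose, with a median log2 fold of -0.80. This was 57.1% called, all lower, against 23.8% higher and 23.9% lower among all genes tested. The count of 0 higher in edgeR was also 0 at an unadjusted p under 0.05, 0 with DESeq2 and 0 with limma-voom. With the length correction 1 was higher and 30 lower, against 22.9% and 24.3% of all genes tested. Mrpl48 had 56.7, 37.7 and 41.5 CPM in IP libraries 1, 2 and 3, and 155, 143 and 154 CPM in input libraries 1, 2 and 3. All IP libraries were far below the inputs, with a log2 fold of -1.73 (SE 0.19, edgeR adjusted p = 6.3e-05). Mrps25 averaged 77.2 ± 23.8 CPM in IP and 91.7 ± 1.22 CPM in input and was not called (log2 fold -0.25, edgeR adjusted p = 0.41). The difference between the cytosolic and the mitochondrial set was not tested.

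**Figure D5:**
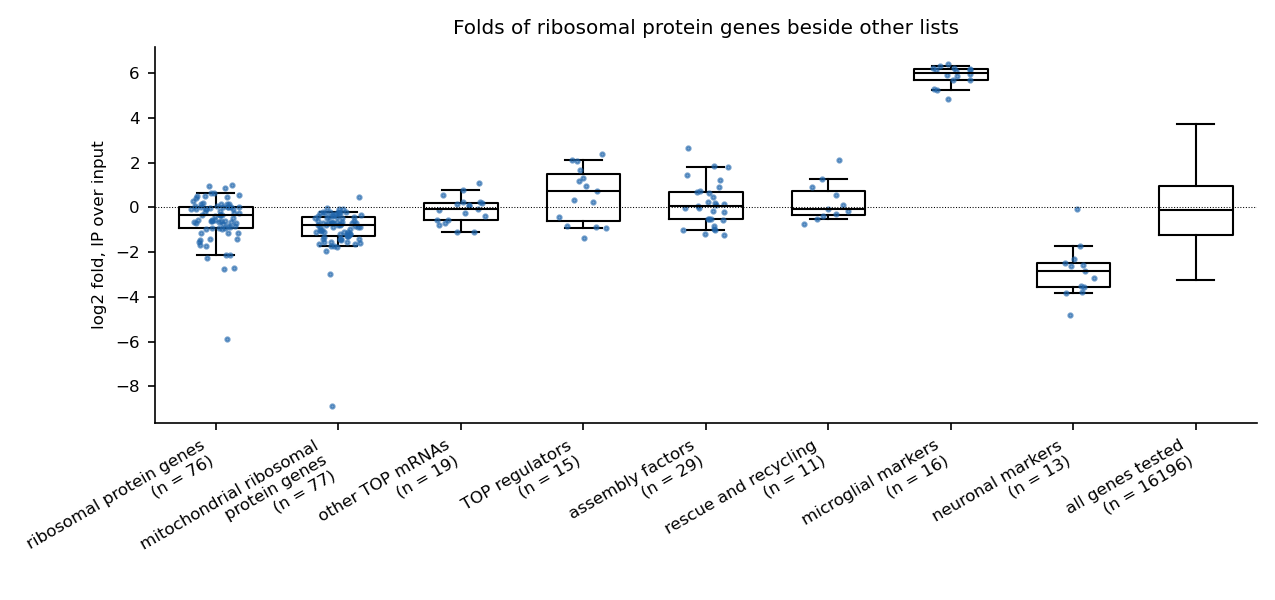
Log2 fold of IP over input for the tested genes of each list (points), with boxes for the median and quartiles and whiskers from the 5 to the 95 percentile; the last box gives all 16196 genes tested, without points. Ribosomal protein genes centre on -0.35 and mitochondrial ribosomal protein genes on -0.80, far from microglial markers at 6.04 and neuronal markers at -2.84.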

How the data were processed

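RNA of 3 IP and 3 input hippocampal libraries was compared. Groups were taken from the sample titles. The authors deposited raw counts, whole numbers of reads for each gene. Per the submitters' processing notes, bcl2fastq 2.17, FastQC, Trimmomatic and mm10 were used. The annotation, the aligner and the counter with its strand option were each not given in the sources used here. Counts of genes that overlap on either strand are therefore uncertain. The labels' protocols name a stranded kit after mRNA enrichment.

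Of the 39017 gene identifiers, 37607 were named by GENCODE M21, on GRCm38. IP was tested against input with edgeR's quasi-likelihood test (edgeR 4.0.16, R 4.3.3) with TMM factors, filterByExpr (minimum count 10), robust dispersion and no block, with Benjamini-Hochberg adjustment over 16196 genes. Folds used a prior count of 0.125. CPM values are given as mean ± SD over 3 libraries. Libraries of a group differed beyond sampling noise (chi-square per degree of freedom 25.3 to 49.5).

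Pseudogene rows were assigned by shared words of 31 bases. The length correction took a spline of log2 transcript length per library into the offsets. Alternatives were other scaling factors, filters and prior counts, DESeq2 1.42.0, limma-voom (limma 3.58.1), the title code as a block, the length correction, pseudogenes summed by name and each library or pair left out. Summing pseudogenes by sequence was chosen after seeing the data. Other steps used SciPy 1.17.1, NumPy 2.4.6, pandas 2.3.3 and Matplotlib 3.10.9 in Python 3.11.15. The test was also run on simulated data. The genes, lists and tests were chosen with earlier results of these data known.

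A few genes are counted in every total and are not reported by name here. Named genes were Rpl22, the stalk genes, the paralogs, the 6 highest and 6 lowest folds among tested genes of this family whose average log2 CPM reached 3, the 3 highest per kilobase in each group, the 2 most abundant genes of each related list and Tmem119. Others named are called genes, list members or genes chosen after their values were seen.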

Additional observations from a re-analysis of the deposited data

How the results depend on the processing

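Among the ribosomal protein genes, 10 were higher and 9 lower with the length correction, and 9 and 8 when the replicate block was added to it, against 3 and 14. Of all genes tested, 22.9% were higher and 24.3% lower with the length correction, 21.4% and 23.2% with both, and 23.8% and 23.9% with neither. The lower count was 22 with upper quartile factors and 22 with limma-voom, where 26.5% and 28.1% of all genes were lower. Leaving out a library or a pair gave 2 to 4 higher and 6 to 19 lower genes, 2786 to 3910 higher and 2468 to 4192 lower among all genes, and 46 to 72 calls over the related lists, against 75. The median log2 fold of the ribosomal protein genes was -0.56 with the block, 0.030 with the length correction and -0.078 with both, and -0.53 to -0.25 with a library or a pair left out. The block alone gave 3 higher genes, the same 3, and 19 lower, of which 13 were shared with the fit without it. Among all genes it gave 22.8% higher and 23.4% lower. Rps15a was lost, and Rpl32, Rplp1 (-0.69, adjusted p = 0.0093), Rps14, Rps15 (-0.58, adjusted p = 0.0078), Rps20 and Rps26 were gained. These 6 were also gained as lower with limma-voom, as were Rps16 and Rps29, and Rpl7 was gained as higher. Libraries of the same code had correlated deviations of 0.05, 0.25 and 0.17, against -0.19 to 0.05 across codes. Every library but input library 1 correlated best with its own code. Upper quartile factors moved the median of all genes to -0.23 and library totals to -0.20, against -0.10. The median level of the 82 genes in IP was 19.1 CPM per kb with the median transcript length, against 10.8. The cause of these changes was not tested.

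Folds near 0 changed sign. Rpl22 gave -0.049 with upper quartile factors and -0.020 with library totals, -0.092 to 0.16 without 1 library and -0.075, 0.19 and 0.058 without pairs 1, 2 and 3. With upper quartile factors and library totals, Ncl gave -0.073 and -0.041, Rpl8 -0.093 and -0.068, Rplp0 -0.11 and -0.081, and Rplp2 -0.11 and -0.080. Ncl gave -0.56 with the length correction and -0.58 with the block added. Rplp0 gave -0.0038 with pseudogenes summed by sequence. Without 1 library, Ncl ran from -0.12 to 0.15, Rpl8 from -0.079 to 0.22, Rplp0 from -0.10 to 0.15, Rplp2 from -0.097 to 0.13 and Rps27l from -0.26 to 0.41. Without pair 1 these gave -0.16, -0.10, -0.11, -0.15 and -0.20 in that order, and without pair 3 Rplp0, Rplp2 and Rps27l gave -0.0032, -0.0081 and -0.13. A count of 0 in 1 library allows up to 0.140 to 0.281 CPM.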
